A study of Mus musculus with 96 samples.

Results

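The genes described here are 10 that govern entry into the cell cycle: the D cyclins Ccnd1, Ccnd2 and Ccnd3, the E cyclins Ccne1 and Ccne2, the kinases Cdk4 and Cdk6, the pocket protein gene Rb1, and the transcription factor genes E2f1 and E2f4. They were taken by symbol from the 40202 genes of the count files, and all 10 were present. The libraries came from single cells of C10, a mouse lung line labelled as alveolar type II epithelial: 48 untreated cells (control) and 48 cells given RO-3306 at a labelled 10 nM for 36 h. RO-3306 is sold as an inhibitor of CDK1, the kinase of mitosis, and is more usually given at micromolar doses, so the unit in the label is uncertain. Both groups are the same line, with no genetic change named. Each cell was dispensed singly and its RNA taken from one part of a divided lysate.

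D cyclins respond to growth factors and bind Cdk4 or Cdk6. These kinases phosphorylate the RB protein, which otherwise holds E2F factors in check, and freed E2F activators such as E2F1 then switch on cyclin E and genes of DNA synthesis. E2F4 works mostly as a repressor, together with pocket proteins in resting cells. Much of this control acts on proteins, by phosphorylation and degradation, and the files hold RNA counts only.

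A cell was kept where its library reached 50000 counts in 1000 or more detected genes, which left 29 of 48 control and 37 of 48 RO-3306 cells. The median total was 1753427 counts in kept control cells (lowest 59979) and 2234309 in kept RO-3306 cells (lowest 295005). For each group the counts of its kept cells were added up and scaled to counts per 1000000 (CPM), and ratios are log2 of RO-3306 over control with 1 CPM added to both. The labels name no separate cultures, so each treatment was 1 sample and no difference here has a replicate check. The 95% intervals of CPM and of ratios cover counting error only, and PCR copies make them too narrow. Those of shares of cells treat cells as independent draws. They cover the sampling of cells within a group only and do not check a treatment difference. Titles carry letters A to D whose meaning is not given, and these 4 lettered sets, which are not replicates, served to see whether a difference kept its sign and what each set gave to it.

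Genes averaging 5 CPM or more over both groups, 9374 in number, are called measured. Their median ratio was -0.22, and the ratio fell with mRNA length (Spearman's rho -0.36 over 9223 genes, which are not independent). Scaling by edgeR's TMM or DESeq2 factors would move ratios up by 0.21 or 0.24, and by less for low genes, since 1 CPM is added. At an equal depth of 639000 reads, which 25 control and 34 RO-3306 cells reached, the median cell had a count in 4576 genes in control and 5958 in RO-3306. The alveolar type II label was not borne out by its markers: 5 of 8 were at 0 in both groups and the summed list stood at 9.61 CPM (control) and 5.40 CPM (RO-3306). Summed epithelial markers, 5 genes, stood at 1.78 and 0.978 CPM, and 6 mesenchymal ones at 5539 and 2501 CPM, all 6 lower, with Col3a1 (603 and 83.6 CPM) and Col1a1 (714 and 127 CPM) differing most. The sums of alveolar type I markers were 1170 and 1009 CPM, nearly all of it Cav1, at 1111 and 963 CPM. The 7 leukocyte markers together stood at 58.6 CPM (control) and 381 CPM (RO-3306). Among them Cd68 went from 0.0757 to 320 CPM, Cd14 from 26.4 to 45.3 CPM and Lyz2 from 29.5 to 15.8 CPM. The defining markers Ptprc (0 and 0.129 CPM), Adgre1 (0.0151 and 0 CPM), Csf1r (1.70 and 0 CPM) and Itgam (0.924 and 0.0108 CPM) were at or near 0. In single cells the leukocyte list ran from 0 to 314 CPM in control and from 0 to 860 CPM in RO-3306, and its part in the results below was not tested.

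RefSeq promoter windows of build GRCm38.p6, from 250 bases before to 50 after an annotated start, were on hand for 5 of the 10 genes. The windows of the kinase pair are shown because both hold the palindromic E-box CACGTG, a site that Myc family proteins are known to bind, in different number. Capitals mark each CACGTG, which reads the same on both strands. The Cdk4 window lies at chr10:127063285-127063584 on the plus strand, and the Cdk6 window at chr5:3343643-3343942, plus strand, surrounds a start 2889 bases inside the gene span.
Cdk4: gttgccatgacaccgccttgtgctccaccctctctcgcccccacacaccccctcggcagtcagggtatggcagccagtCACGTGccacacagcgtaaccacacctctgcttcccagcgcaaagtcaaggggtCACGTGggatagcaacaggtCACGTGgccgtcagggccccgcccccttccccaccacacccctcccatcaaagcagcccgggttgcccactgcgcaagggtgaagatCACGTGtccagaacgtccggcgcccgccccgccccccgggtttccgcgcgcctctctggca
Cdk6: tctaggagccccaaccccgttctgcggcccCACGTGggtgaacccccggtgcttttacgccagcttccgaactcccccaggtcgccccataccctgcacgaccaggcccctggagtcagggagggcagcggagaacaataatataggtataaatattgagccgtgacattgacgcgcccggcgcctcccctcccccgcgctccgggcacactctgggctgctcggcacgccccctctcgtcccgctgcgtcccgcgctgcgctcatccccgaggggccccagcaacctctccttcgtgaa
The Cdk4 window held 4 copies, at -172, -118, -98 and -11 from the start site, and the Cdk6 window held 1, at -220. Among 32851 promoter windows of this length, 7.15% held at least 1 copy and 8 windows (0.0244%) held at least 4. The E2F octamers TTTCCCGC, TTTCGCGC, TTTGCCGC and TTTGGCGC, searched on both strands, occurred in 2.26% of all windows and in none of the 6 windows of these genes. The 6 windows are those of Cdk4, Cdk6, Ccne1, E2f1 and, with 2, Ccnd3. As with Cdk6, the start of E2f1 (466 bases) and of 1 Ccnd3 window (88416 bases) lies inside the gene span. Such windows do not reach the sequence before the gene, so a missing octamer says nothing about that sequence. All motif hits here are matches of letters and not sites of binding. Myc RNA itself stood at 146 CPM in control cells against 107 CPM after RO-3306, a log2 ratio of -0.45.

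Of the 10 genes, 2 were at least 2-fold higher in RO-3306 cells (Ccnd1 and Rb1), against 12.2% of all measured genes, and 3 were at least 2-fold lower (Ccne1, Ccne2 and Cdk6), against 24.2%. Those shares, 20% and 30%, lie near the background, so the set as a whole did not stand apart. The median of the 10 ratios was 0.24. It was -0.08 when cells were averaged with equal weight, so the set has no direction of its own here. Ccnd1, Ccnd2 and Cdk4 were higher in all 4 lettered sets, as were 13% of measured genes, and Cdk6 was lower in all 4, as were 10.3%. The other 6 genes changed sign between sets. Only Ccnd1 and Cdk6 passed both the fold and the sign, as did 7.23% (higher) and 6.43% (lower) of measured genes.

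**Figure D1:**
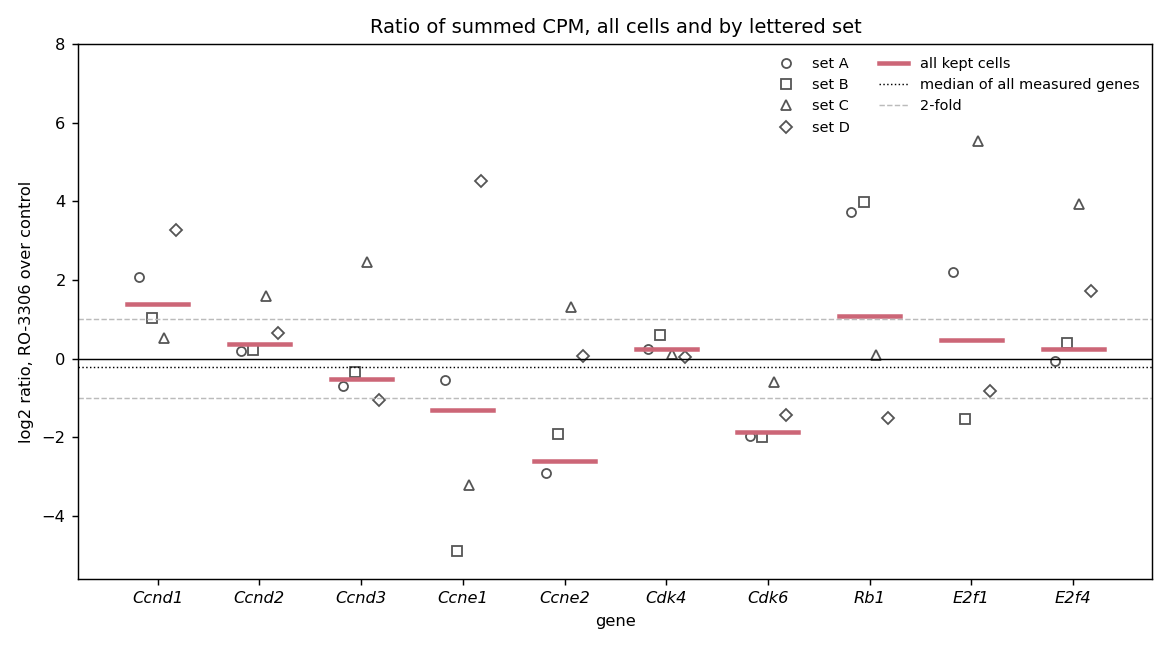
Log2 ratio of RO-3306 over control CPM for each of the 10 genes (y axis). Thick lines are the sums over all kept cells, open symbols the lettered sets A to D, dashed lines 2-fold and the dotted line the median of all measured genes. The 4 sets lie on one side of 0 for Ccnd1, Ccnd2, Cdk4 and Cdk6, and spread from -4.90 to 4.52 for Ccne1.

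Among the D cyclins, Ccnd1, which encodes cyclin D1, showed the clearest difference. In 29 control cells it ranged from 0 to 363 CPM with a median of 0.397 CPM, and in 37 RO-3306 cells from 0 to 581 CPM with a median of 133 CPM. The ranges overlapped, but 14 control cells and 4 RO-3306 cells had no count. The summed level was 63.5 CPM (95% interval 61.6 to 65.4) in control against 168 CPM (165 to 171) in RO-3306, a ratio of 2.65 (2.56 to 2.74), or 1.39 on the log2 scale. By set, the sums were 61.8 and 263 CPM in A, 73.2 and 150 CPM in B, 79.1 and 115 CPM in C, and 18.4 and 185 CPM in D. Set D had the widest gap (log2 ratio 3.26) and set C the narrowest (0.53). Control cell B5 alone gave 29.1% of the control counts, and without it the log2 ratio was 1.76. The gene lies at chr7:144483668-144493568 (GRCm39, minus strand), and 40% of the libraries with a count held a fractional one, from reads placed at several sites.

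Ccnd2, for cyclin D2, went from a sum of 104 CPM to 134 CPM, a ratio of 1.29 (1.26 to 1.33). The per-cell median was 58.7 CPM in control (0 to 405) and 122 CPM in RO-3306 (16.8 to 1023). Every RO-3306 cell had a count, while 8 control cells had none. Its log2 ratio was 0.37 in all, and 0.19, 0.22, 1.58 and 0.66 in sets A to D, so the sums differed little in A and B. Averaging cells with equal weight gave 0.998, and set against genes near in mRNA length Ccnd2 stood at 1.13, past 2-fold.

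Ccnd3, for cyclin D3, pointed the other way in the sum: 184 CPM in control against 128 CPM in RO-3306, 1.44-fold lower (1.40 to 1.47). Per-cell medians were 163 CPM (0 to 501) and 104 CPM (0 to 524). Sets A, B and D were lower, at -0.71, -0.35 and -1.07, and set C was higher, at 2.47. In set C only 2 of 6 control cells had a Ccnd3 count, with a sum of 20.8 CPM.

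Set against mRNA length, Ccnd3 was the main D cyclin of control cells, with 72.3% of the 3 genes' CPM per kb, beside 14.1% for Ccnd1 and 13.6% for Ccnd2. In RO-3306 cells Ccnd3 held 47.8%, Ccnd1 35.5% and Ccnd2 16.7%. The Ccnd1 share was higher with RO-3306 in sets A (13.2% and 48.4%), B (13.9% and 28.1%) and D (3.99% and 41.6%), and lower in set C (55.0% and 27.9%). Counted cell by cell at equal depth, Ccnd3 was the most abundant D cyclin per length in 18 of 25 control and 14 of 34 RO-3306 cells, and Ccnd1 in 3 of 25 and 15 of 34. All 3 D cyclins had a count in 11 of 25 control cells (44%, Clopper-Pearson 95% interval 24.4% to 65.1%) and in 29 of 34 RO-3306 cells (85.3%, 68.9% to 95.05%). These shares depend on 1 reference transcript length per gene. The counts include introns, and the gene spans differ (Ccnd1 9901 nt, Ccnd2 29789 nt and Ccnd3 94639 nt). In raw counts Ccnd3 held 52.4% in control, but in RO-3306 cells 29.8%, below Ccnd1 (39.1%) and Ccnd2 (31.2%).

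**Figure D2:**
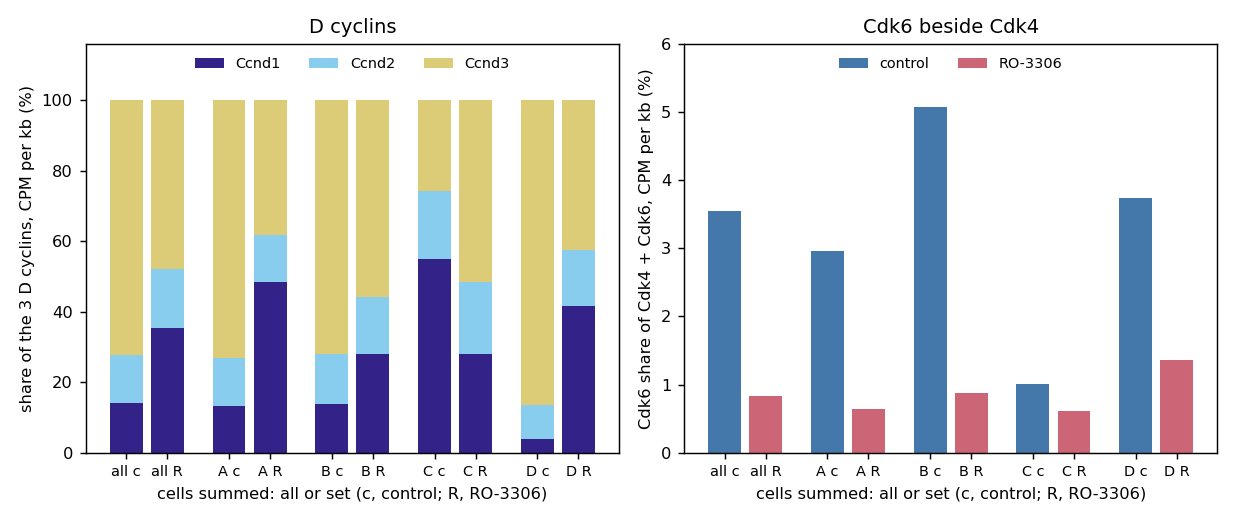
Left, share of each D cyclin in the summed CPM per kb of the 3 genes (%), right, share of Cdk6 in Cdk4 plus Cdk6 (%), for control (c) and RO-3306 (R) cells, all kept cells and sets A to D. The Ccnd1 band goes from 14.1% to 35.5% over all cells but is narrower in set C with RO-3306, and the Cdk6 bar is lower in each RO-3306 group.

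Of the catalytic partners, Cdk4 was the most abundant of the 10 genes and the only one with a count in each of the 66 kept cells. Control cells ran from 107 to 2380 CPM with a median of 783 CPM, and RO-3306 cells from 94.9 to 1846 CPM with a median of 1133 CPM. The lowest RO-3306 value belonged to cell B3, in which mitochondrial genes took 56.0% of counts. Summed levels were 896 and 1066 CPM, a ratio of 1.19 (1.18 to 1.20). The difference was small beside the spread over cells, whose coefficient of variation was 50.1% in control and 37.3% in RO-3306. The log2 ratio was 0.25 in all, and 0.24, 0.59, 0.10 and 0.05 in sets A to D.

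Cdk6, which shares its cyclins and its substrate with Cdk4, was 3.69-fold lower (3.57 to 3.82) in RO-3306 cells, at 185 CPM against 50.2 CPM. Per-cell values ran from 0 to 647 CPM in control, with a median of 79.2 CPM, and from 0 to 635 CPM in RO-3306, with a median of 40.6 CPM. The ranges covered each other, and nearly every cell had a count: 27 of 29 in control and 36 of 37 with RO-3306. At equal depth, 88% of control and 73.5% of RO-3306 cells had at least 5 Cdk6 counts. Log2 ratios were -1.97, -1.98, -0.60 and -1.42 in sets A to D, against -1.86 in all, but in set D the per-cell median was higher with RO-3306 (23.03 CPM and 47.02 CPM). With equal weight per cell the ratio was -1.07. Genes near Cdk6 in mRNA length (11525 nt) had a median ratio of -0.90, and set against that median Cdk6 stood at -0.97, just inside 2-fold. The gene spans chr5:3391004-3581008 (GRCm39, plus strand).

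Per kb, Cdk6 made up 3.55% of the Cdk4 and Cdk6 total in control cells against 0.831% in RO-3306 cells. The share was lower in each set, from 2.96% to 0.644% in A, 5.07% to 0.876% in B, 1.001% to 0.612% in C and 3.74% to 1.37% in D. Cdk4 exceeded Cdk6 per length in all 25 control and all 34 RO-3306 cells at equal depth.

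**Figure D3:**
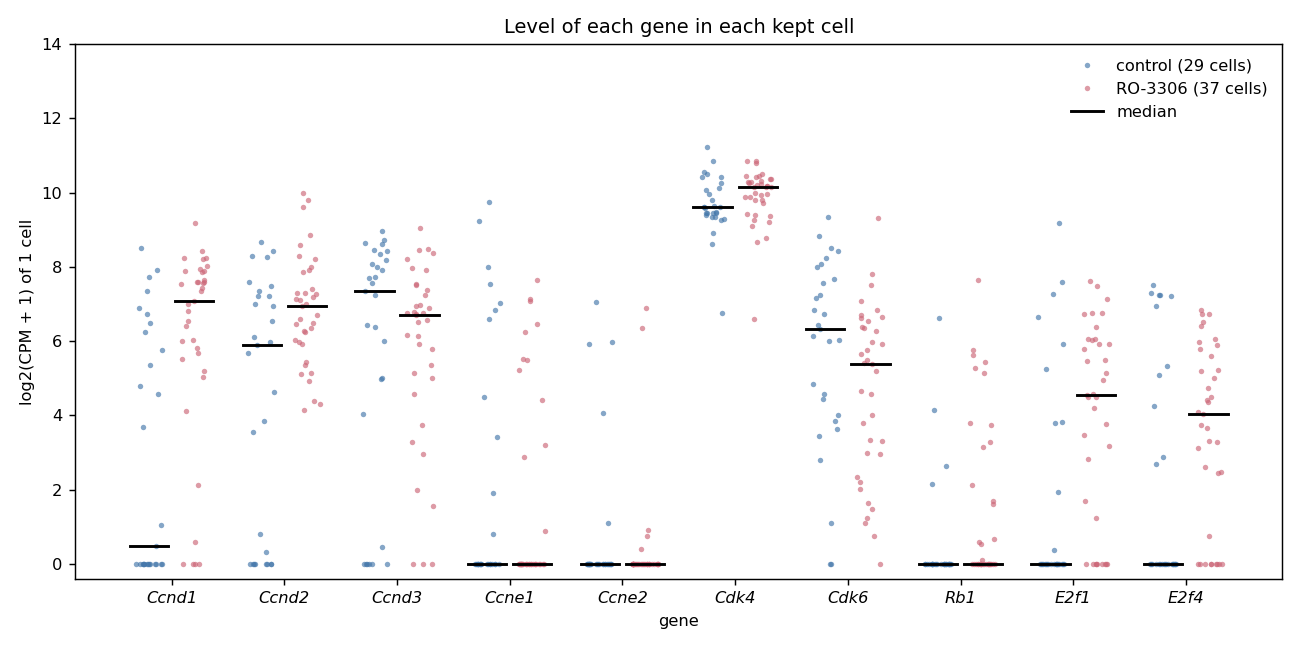
Level of each gene in each kept cell as log2(CPM + 1), 29 control (blue) and 37 RO-3306 cells (red), with a black line at the median. Cdk4 is present in every cell, the Ccnd1 control points split between 0 and the range of the RO-3306 cells, and the medians of Ccne1, Ccne2 and Rb1 lie at 0 in both groups.

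The E cyclins activate CDK2 late in G1, and both were found in a minority of cells. Ccne1 had a count in 11 of 29 control and 12 of 37 RO-3306 cells, so the per-cell median was 0 in both groups, with highest values of 864 and 200 CPM. The sums were 60.4 and 23.7 CPM, 2.55-fold lower in RO-3306 (2.42 to 2.69). That difference rested on few cells: control cell C7 gave 38.4% of the control counts, and without it the log2 ratio went from -1.32 to -0.67. Log2 ratios by set were -0.53, -4.90, -3.21 and 4.52, and without set C the ratio over the rest was -0.61. Ccne2 had a count in 5 cells of each group. It had at least 5 counts at equal depth in 16% of control and 2.94% of RO-3306 cells. Its sums were 13.5 and 1.40 CPM, a log2 ratio of -2.60, with set values of -2.90, -1.91, 1.32 and 0.06, and without set A the ratio was -0.65. Other gene models overlap 44.5% of the Ccne2 span, where reads may have gone uncounted. At equal depth, 12 of 25 control cells (48%, 27.8% to 68.7%) and 12 of 34 RO-3306 cells (35.3%, 19.7% to 53.5%) had either E cyclin.

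Rb1, the gene of the RB protein, was sparse. It had a count in 4 of 29 control cells (highest 97.8 CPM) and 17 of 37 RO-3306 cells (highest 200 CPM), with medians of 0. The sums were 5.31 and 12.3 CPM, a ratio of 2.31 (2.05 to 2.62), or 1.07 on the log2 scale. Control cell D9 held 91.4% of the control counts, and without it the log2 ratio was 3.17, while without RO-3306 cell B6 it was 0.74. Sets A and B were higher, at 3.72 and 3.98, set C differed little at 0.10, and set D was lower at -1.51. Without set A the ratio was 0.15. At equal depth the share of cells with a count was 12% (2.55% to 31.2%) in control and 41.2% (24.6% to 59.3%) in RO-3306.

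E2f1, an activator of S-phase genes that is itself an E2F target, was found in more RO-3306 cells with little difference in the sum. It had a count in 10 of 29 control and 28 of 37 RO-3306 cells, with medians of 0 (highest 583 CPM) and 22.4 CPM (highest 197 CPM). The sums were 39.2 and 54.3 CPM, a log2 ratio of 0.46. Control cell B5 gave 38.1% of control counts and moved the ratio to 1.02 when left out, and thinning to equal depth turned it to -0.09. Set values were 2.19, -1.53, 5.52 and -0.81. E2f4 showed a like pattern: 11 of 29 and 28 of 37 cells, medians of 0 (highest 180 CPM) and 15.4 CPM (highest 114 CPM), and sums of 26.9 and 31.9 CPM. Its log2 ratio of 0.24 became -0.26 with equal weight per cell and 1.14 without set A. In sets A to D it was -0.05, 0.39, 3.93 and 1.72. Both factors were counted in fewer control cells. Among cells with a count, the E2f4 median was higher in control, at 122 CPM in 11 cells against 23.8 CPM in 28 RO-3306 cells. Of those 11 control cells, 6 were in set A. The highest E2f4 values of control cells in sets B, C and D were 39.3, 6.40 and 180 CPM, so the higher control median leaned on set A. The E2f1 medians of cells with a count were close, at 48.2 and 43.8 CPM.

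At equal depth, the share of cells with a count was at least 20 percentage points higher with RO-3306 for 5 of the 10 genes (Ccnd1, Ccnd2, Rb1, E2f1 and E2f4), against 27.4% of measured genes, and at least 20 points lower for 0 of 10, against 1.98%. Ccnd1 went from 52% (31.3% to 72.2%) to 91.2% (76.3% to 98.1%). E2f1 went from 36% (17.97% to 57.5%) to 79.4% (62.1% to 91.3%), and E2f4 from 40% (21.1% to 61.3%) to the same 79.4%. The median over all measured genes was a difference of 8.94 points, and the part of the higher gene number per RO-3306 cell in these values was not tested. The median cell had a count for 5 of the 10 genes in control (2 to 9) and 7 in RO-3306 (3 to 9).

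**Figure D4:**
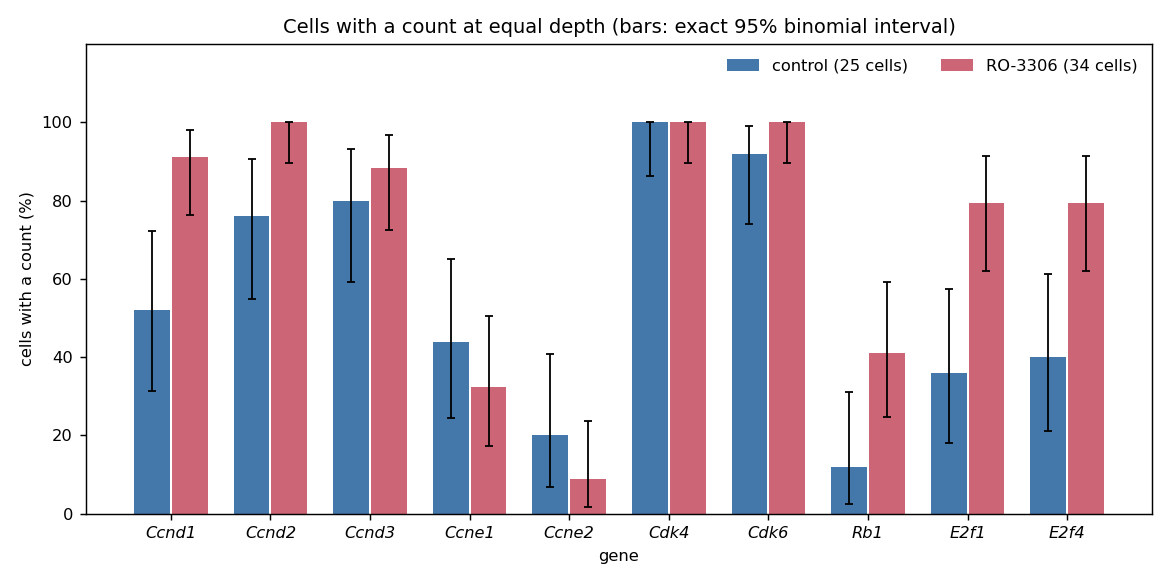
Share of cells with a count (%) for each gene after thinning to equal depth, 25 control and 34 RO-3306 cells. Whiskers are exact 95% binomial intervals over cells, which are not replicates. Ccnd1 goes from 52% to 91.2% and E2f1 from 36% to 79.4%, Ccne1 and Ccne2 have lower bars with RO-3306, and Cdk4 stands at 100% in both groups.

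Set against mRNA length, the order in control cells was Cdk4 (436 CPM per kb), Ccnd3 (87.0), Ccne1 (30.2), Ccnd1 (16.97), Ccnd2 (16.4), Cdk6 (16.1), E2f1 (14.2), E2f4 (13.5), Ccne2 (4.504) and Rb1 (1.14). The neighbours from Ccnd1 to E2f4 lay closer together than the part that 1 cell gave to Ccnd1 (29.1%) or E2f1 (38.1%), so their order is not firm. In RO-3306 cells Cdk4 (519 CPM per kb) and Ccnd3 (60.6) again led, followed by Ccnd1 (44.9). Ccne1 moved from rank 3 to 7 (11.8 CPM per kb) and Cdk6 from 6 to 8 (4.355). The counts include introns, so ranks per mRNA length are rough: in summed CPM of RO-3306 cells, Ccnd1 (168) stood above Ccnd3 (128).

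Cells were also compared within each group at equal depth, as a description, since they share chemistry and depth. Over the 45 pairs of the 10 genes, Spearman's rho had a median of 0.06 in 25 control cells against 0.01 in 34 RO-3306 cells. Several of the genes lacked a count in most cells, so a median near 0 cannot show that their levels were unrelated. The lowest values were -0.33 (Ccne1 and E2f4, control) and -0.28 (Ccnd1 and Ccne2, RO-3306). The highest values were 0.45 (Ccne2 and Rb1, control) and 0.39 (Ccnd3 and E2f4, RO-3306). Against the summed G2/M genes, Ccne1 had a rho of -0.20 in control and -0.56 in RO-3306 cells. The latter stood out among many values, and only 11 of the 34 RO-3306 cells had a Ccne1 count, so no trend is read from it. Ccnd1 and Cdkn1a, the gene of the CDK inhibitor p21, had a rho of -0.06 in control and 0.40 in RO-3306 cells. The genes most like a given gene, out of 3482 searched and by the mean of both groups' rho, were Ppp4c (0.52) for Ccnd1, Mrpl22 (0.55) for Ccnd2, Dtnbp1 (0.52) for Ccnd3, Selenow (0.50) for Cdk4 and Cdc42ep3 (0.50) for Cdk6. For E2f1 it was E030030I06Rik (0.49) and for E2f4 Eef1d (0.48). The first 3 places for these 7 genes spanned 0.40 to 0.55, and the best of so many weak correlations is no finding.

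Around the 10 genes, the CDK inhibitors had 3 of 7 genes measured. Of these 1 was at least 2-fold higher and 1 lower, against 12.2% and 24.2% of all measured genes. Cdkn1a went from 78.9 to 287 CPM (log2 ratio 1.85), found in 18 of 29 and 36 of 37 cells. Cdkn2c, whose product p18 binds Cdk4 and Cdk6, went from 170 to 34.1 CPM (-2.28) and was lower in all 4 sets. At equal depth Cdkn1a had a count in 14 of 25 control and 33 of 34 RO-3306 cells. Ccnd1 and Cdkn1a were both counted in 7 of 25 control and 31 of 34 RO-3306 cells. Ccnd1 without Cdkn1a occurred in 6 control and 0 of 34 RO-3306 cells (Clopper-Pearson upper bound 10.3%). With Cdkn1a in nearly every RO-3306 cell, these counts largely follow from its detection and show no link between the genes.

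The relatives of RB and E2F had 13 of 15 genes measured, with 3 higher and 2 lower by 2-fold, against 12.2% and 24.2% of all measured genes. Their median was -0.43. E2f3, an activator like E2f1, went from 3.58 to 31.02 CPM (2.81), though 1 cell held 76.5% of its control counts, and Lin52, of the DREAM complex that carries E2F4, from 19.1 to 41.3 CPM (1.08). Both were higher in all 4 sets. Genes that activate the G1 kinases had 5 of 6 measured, 0 higher and 1 lower by 2-fold, against the same background shares. That gene was Cdc25a, a phosphatase that activates CDK2, at 26.2 CPM (8 of 29 cells) and 0.980 CPM (4 of 37 cells), -3.78 on the log2 scale. Cdk2 itself, named here after its values were seen, had no count in any kept cell. Another gene model, Pmel, overlaps 100% of its span, where reads may have gone uncounted, so this 0 is no measure of its expression.

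Genes of cyclin turnover had 10 of 10 measured, 1 higher and 3 lower, with a median of -0.24. Fbxo4, an F-box protein described as a cyclin D1 ligase subunit, went from 41.8 to 93.9 CPM (1.15) and was higher in all 4 sets. Mitogen inputs to cyclin D had 9 of 10 measured, 0 higher and 2 lower, with a median of -0.61. None of them passed fold and sign together. Of all measured genes 12.2% were higher and 24.2% lower by 2-fold, and the counts of neither list lay far from those shares.

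The downstream E2F targets differed more evenly than the 10 genes did. All 20 were measured and 20 were lower in RO-3306 cells, against 59% of measured genes, 8 of them by at least 2-fold, against 24.2%, and the list's median was -0.88, against -0.22 for all measured genes. Medians by set were -0.71, -1.15, -0.63 and -0.64. With TMM factors 18 were lower and 4 of them by 2-fold (median -0.67), and set against genes near in length 17 were lower, 2 by 2-fold (median -0.59). Without set B 17 were lower, 6 of them by 2-fold, and 3 higher, 1 by 2-fold (median -0.83). The largest differences with one sign in the 4 sets were in Cdc6 (36.7 and 6.20 CPM, -2.39) and Cdt1 (111 and 31.9 CPM, -1.77), which load the replicative helicase, and in its subunits Mcm6 (232 and 91.2 CPM, -1.34) and Mcm4 (202 and 86.8 CPM, -1.21). In set A, Mcm6 (-0.13) and Mcm4 (-0.04) differed by less than the scaling shift. Per cell at equal depth, the summed targets had a median of 3264 CPM in control against 1996 CPM in RO-3306 cells. Within a group that sum followed neither E2f1 (rho 0.31 and 0.05) nor Ccnd1 (-0.05 and 0.21) closely, and with E2f4 it stood at -0.53 in control and 0.22 in RO-3306 cells. The G2/M genes had 12 of 12 measured, 0 higher and 4 lower by 2-fold, against 12.2% and 24.2% of all measured genes. Their median was -0.06, and neither count nor sign was stable. With equal weight per cell 2 were higher and 0 lower by 2-fold (median 0.34), and at equal depth 3 and 1 (0.46). Without set B the counts were 3 and 0 (0.68), and without set A 0 and 5 (-0.70). Ube2c, the most abundant of them, went from 647 to 1246 CPM.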

How the data were processed

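Gene values are expected counts, which the authors made with featureCounts 2.0.3 over RefSeq gene spans of GRCm39, per the file headers: introns are included, a read placed at several sites is split into fractions, and no strand option is recorded. Per the submitters' processing notes, FastQC and STAR were also used. Trimming and read filters are not given in the sources used here.

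Counts were summed over kept cells and scaled to CPM in Python 3.11.15 with pandas 2.3.3, numpy 2.4.6 and scipy 1.17.1. They were rounded to whole numbers for intervals, for thinning (seed 1) and for scaling factors (edgeR 4.0.16 and DESeq2 1.42.0 in R 4.3.3). A gene counted as measured from an average of 5 CPM and as called at 2-fold. No test was run, since each treatment is 1 sample, and no doublet caller, since each library is 1 sorted cell. The script for the ratios was checked on simulated counts. No library pair among the kept cells held identical values. The 10 genes, the gene lists and the rule for named genes were chosen with earlier results of these data known. By that rule, up to 4 genes of a list are named that passed 2-fold with one sign in all 4 lettered sets, or the most abundant gene where none did; 1 gene so chosen is not reported here. The mRNA lengths come from GENCODE M21. Alternatives covered scaling, filters, pseudocount, weighting, length, and leaving out sets or cells.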

Additional observations from a re-analysis of the deposited data

How the results depend on the processing

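Of 369 alternative values for 47 results, 226 stayed within the spread used for comparison, 143 moved and 0 changed the sign of a called value. The number of genes at least 2-fold higher was 1, not 2, with all libraries and without the highest cell of each gene, where Rb1 averaged under 5 CPM, and 3 when set against genes near in length. The number lower was 2 or 3. The genes behind these numbers changed. Rb1 fell to 0.15 without set A, where E2f4 stood at 1.14, and to 0.36 without set B, where E2f1 stood at 1.23. Of the lower genes, Ccne1 stood at -0.61 without set C and Ccne2 at -0.68 with equal weight per cell. Cdk6 stood at -0.97 against genes near in length. The median of the 10 ratios (0.24) was 0.45 with TMM factors, 0.48 with DESeq2 factors, 0.27 with mitochondrial counts left out of the total, -0.0765 with equal weight per cell and -0.0764 at equal depth. It was 0.25 with a pseudocount of 0.1 CPM, 0.26 with cells of at least 500000 counts and 2000 genes, 0.23 with all libraries, 0.25 without cells over 20% mitochondrial, 0.22 without the highest cell of each gene, and 0.15, 0.083, 0.0020 and 0.28 without sets A, B, C and D. Medians use the genes that stay at 5 CPM or more under each setting. Leaving out single cells was added after seeing the data, as were the list values under other settings. No paired analysis was possible because each treatment is 1 sample and cells of the groups share no label beyond letter and number. Depth limits what can be said of genes counted in few cells, such as Ccne2 and Rb1.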

Other observations

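The 30 libraries left out held few reads of these genes, also relative to their totals. In the 19 control libraries, with 341166 counts in all, Cdk4 had 8 counts (23.4 CPM, Poisson 95% interval 10.1 to 46.2), and in the 11 RO-3306 libraries, with 1162603 counts, it had 29 counts (24.9 CPM, 16.7 to 35.8), against 896 and 1066 CPM in kept cells. Ccnd1, Ccnd2, Ccne1, E2f1 and E2f4 had no count in the control libraries left out, with a Poisson upper bound of 10.8 CPM. Rb1 was the exception: control library C10, with 16270 counts over 764 genes, held 55 Rb1 counts, or 3380 CPM. With all libraries counted, the Rb1 log2 ratio was 0.89.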
